A study of Mus musculus with 10 samples.

Results

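The Myc, Max and Mxd family was followed in the deposited expression values as 10 listed genes of the 25579 in each file, together with the Pax5 peaks in and near them. The genes were taken by name: Myc, Mycn, Mycl, Max, Mxd1, Mxd3, Mxd4, Mxi1, Mnt and Mlx. RNA-seq was available for 8 libraries of C57BL/6 mice, with 2 libraries for each of 4 Pax5 genotypes. Pax5+/+, Pax5+/- and Pax5 R31Q/- cells were pro-B cells sorted directly from bone marrow, whereas the labels name the Pax5-/- cells progenitors. Pax5 R31Q/- cells carry a null allele beside the allele with the amino acid exchange, so Pax5+/- cells are the control with the same null allele. In the Pax5-/- mice a floxed Pax5 gene was deleted by Vav-Cre, which acts across blood cells and not in the B cell lineage alone. Pax5 ChIP-seq peaks came from 1 Rag2-/- library, which stands for wild-type Pax5 on a background that cannot recombine its immunoglobulin genes, and 1 Pax5 R31Q/- library. Both of these were made from pro-B cells expanded for a short time on OP9 stromal cells with IL-7, and not from freshly sorted cells. The antibody detects the paired domain of Pax5, the part in which the exchange lies. The age of the mice used for sequencing is not given in the sources used here.

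Myc, N-Myc (Mycn) and L-Myc (Mycl) are basic helix-loop-helix leucine zipper proteins that bind DNA only as heterodimers with Max and activate genes for growth, ribosome production and metabolism. Mxd1, Mxd3, Mxd4, Mxi1 (also called Mxd2) and Mnt compete for the same partner and the same E-box sites, where they recruit the Sin3 and histone deacetylase corepressors. Mlx is a Max-like protein that pairs with the glucose sensors MondoA (Mlxip) and ChREBP (Mlxipl), and also with some Mxd proteins and Mnt. In early B cells Myc drives proliferation downstream of the IL-7 and pre-B cell receptors, and its level has to fall before pre-B cells leave the cell cycle.

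All 10 members carried a Pax5 peak at an annotated start in both peak lists, so the sequences below show what lies at the starts of the members with the largest differences and at the E-boxes of the family. Sequences are from RefSeq on GRCm38.p6, whose coordinates are those of mm10, and run 5′ to 3′ on the strand of the gene. The 250 bases before the start of Mxd3 (chr13:55329732-55329981, minus strand), the member that fell furthest in Pax5-/- cells, lie wholly inside a peak in both lists. The 250 bases before the start of Mycl (chr4:122995681-122995930, plus strand), the member that rose furthest, lie inside the Pax5 R31Q/- peak and just past the end of the Rag2-/- peak, and capitals mark the core of the Pax5 recognition sequence on the opposite strand.
Mxd3: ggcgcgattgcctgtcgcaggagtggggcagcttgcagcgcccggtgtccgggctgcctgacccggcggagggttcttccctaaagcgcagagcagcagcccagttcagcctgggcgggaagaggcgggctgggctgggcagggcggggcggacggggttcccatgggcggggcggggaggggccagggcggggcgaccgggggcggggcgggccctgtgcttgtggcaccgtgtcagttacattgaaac
Mycl: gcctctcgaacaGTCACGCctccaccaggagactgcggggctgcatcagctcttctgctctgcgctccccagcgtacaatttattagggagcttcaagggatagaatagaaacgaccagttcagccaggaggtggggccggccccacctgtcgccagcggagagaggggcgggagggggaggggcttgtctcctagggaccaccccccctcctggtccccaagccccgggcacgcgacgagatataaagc

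Capitals in the next lines mark the E-box CACGTG, the palindromic site of Myc and Max dimers, in the windows of 300 bases around a start in which it was found.
Max, chr12:76962234-76962263, minus strand: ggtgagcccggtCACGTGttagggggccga
Mnt, chr11:74830789-74830818, plus strand: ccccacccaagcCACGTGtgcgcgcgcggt
Mxd4, chr5:34187912-34187941, minus strand: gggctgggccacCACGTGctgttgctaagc
Mlx, chr11:101087238-101087267, plus strand: ggtgggttggatCACGTGactgagcctcgc
The promoter table held 11 windows for 9 of the 10 members, 3 of them for Mxi1. None was listed there for Myc. A CACGTG was present in 4 of the 11 windows, against 7.15% of the 32851 promoter windows of the same length. It began 3 bases before the start of Max, 40 before that of Mlx, 123 before that of Mnt and 219 before that of Mxd4. The motif reads the same on both strands, and its presence in a window is a description of the letters and no measure of binding.

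Pax5 itself was measured in every library as a check of the labels. Its level was 418 and 444 TPM in Pax5+/+, 272 and 287 TPM in Pax5+/-, 306 and 293 TPM in Pax5 R31Q/-, and 1242 and 1409 TPM in Pax5-/- libraries. TPM divides reads by gene length and by the library total, so levels can be compared between genes. A value per gene does not resolve the deleted part, so the high level in the libraries labelled Pax5-/- does not check that label. The 14 pro-B cell markers summed to between 16495 and 20973 TPM in the other genotypes and to between 9041 and 9835 TPM in Pax5-/- libraries, while Dntt, the terminal transferase of early lymphocytes, was at 3566 and 3072 TPM there. Whole reads, recovered because low TPM values are multiples of the value of 1 read, ranged from 21625407 to 34488454 per library. Nothing in the labels says that libraries of a genotype came from separate mice, so the p-values measure the spread between these libraries, which may be technical.

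In Pax5-/- cells the family changed in both directions relative to Pax5+/+ pro-B cells. Mxd3 fell to a mean TPM 20.3-fold lower and Mxi1 to one 1.74-fold lower, whereas Mycl rose 13.2-fold and Myc 2.58-fold in mean TPM. By limma on log2(TPM + 1), fitted over all 8 libraries and 13436 genes and called at an adjusted p-value under 0.05, 4 of the 10 members were called, 2 lower and 2 higher. Of all genes tested, 35.9% were called in this comparison, 19.7% lower and 16.2% higher, so the number of members called is near that of genes at large. The median log2 difference was -0.17 over the 10 members and -0.11 over all genes tested. Requiring in addition more than 3-fold and a mean above 5 TPM, as the study's methods do, left Mxd3 and Mycl, against 6.88% of all genes. Bulk values cannot tell fewer expressing cells from less RNA per cell.

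Among the activators, Myc was the most abundant in each of the 8 libraries. It had 113 and 182 TPM in Pax5+/+, 200.3 and 185 TPM in Pax5+/-, 189.9 and 185 TPM in Pax5 R31Q/-, and 379 and 382 TPM in Pax5-/- libraries. Both Pax5-/- libraries lay above all others, and the widest gap within a genotype was between the Pax5+/+ libraries. The log2 difference of Pax5-/- from Pax5+/+ was 1.40 (SE 0.20, adjusted p = 0.0014, limma), and that of Pax5 R31Q/- from Pax5-/- was -1.02 (SE 0.20, adjusted p = 0.0073 from limma). The latter call was lost without either Pax5 R31Q/- library, with adjusted p = 0.053 without replicate 1 and 0.054 without replicate 2. Between Pax5 R31Q/- and Pax5+/+ the difference of Myc was 0.38 with a 95% interval from -0.08 to 0.84 (adjusted p = 0.34 from limma). It rested on the Pax5+/+ libraries: it was 0.72 and called without Pax5+/+ replicate 2 (adjusted p = 0.046 from limma) and 0.04 without Pax5+/+ replicate 1.

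Mycl was weakly expressed and had the largest rise of the members in Pax5-/- cells in proportion. It had 0.961 and 0.638 TPM in Pax5+/+, 1.31 and 1.07 TPM in Pax5+/-, 2.84 and 2.04 TPM in Pax5 R31Q/-, and 8.54 and 12.5 TPM in Pax5-/- libraries. These levels rest on 49, 29, 65, 53, 145, 102, 314 and 649 recovered reads, and the genotypes did not overlap. Mycl passed the filter of 1 TPM in at least 1 library through the genotypes other than Pax5+/+, where it stayed below that level. The ratio of mean TPM of Pax5-/- to Pax5+/+ was 13.2, while the log2(TPM + 1) difference, which understates low genes, was 2.67 (SE 0.23, adjusted p = 1.4e-04 from limma). Pax5 R31Q/- lay below Pax5-/- by -1.73 (SE 0.23, adjusted p = 0.0015 from limma) and above Pax5+/+ by 0.93 (95% interval 0.39 to 1.48, adjusted p = 0.076 from limma). Mycl never made up more than 3.17% of the summed TPM of Myc, Mycn and Mycl.

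Mycn, which is used by developing lymphocytes and by neural and other progenitors, stayed low. It had 2.33 and 2.67 TPM in Pax5+/+, 2.18 and 2.39 TPM in Pax5+/-, 2.02 and 1.75 TPM in Pax5 R31Q/-, and 2.84 and 1.47 TPM in Pax5-/- libraries. The Pax5-/- libraries were the highest and the lowest of the 8, and they span the other genotypes. Its log2 difference of Pax5-/- from Pax5+/+ was -0.18 with an interval from -0.72 to 0.36 (adjusted p = 0.57 from limma).

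Max, the shared partner, varied least of the 10 members. It had 169 and 169.9 TPM in Pax5+/+, 169.6 and 163 TPM in Pax5+/-, 166 and 168 TPM in Pax5 R31Q/-, and 138 and 168 TPM in Pax5-/- libraries. One Pax5-/- library stood below the rest and the other 7 libraries lay within a narrow range. The range of its 4 genotype means was 0.16 on the log2(TPM + 1) scale, against 4.23 for Mxd3, 2.67 for Mycl and 1.40 for Myc. Its difference of Pax5-/- from Pax5+/+ was -0.16 (interval -0.43 to 0.12, adjusted p = 0.34 from limma). It was -0.30 without Pax5-/- replicate 2, where the median over all genes was -0.22. Without Pax5-/- replicate 1 it was -0.01, where that median was 0.01.

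**Figure D1:**
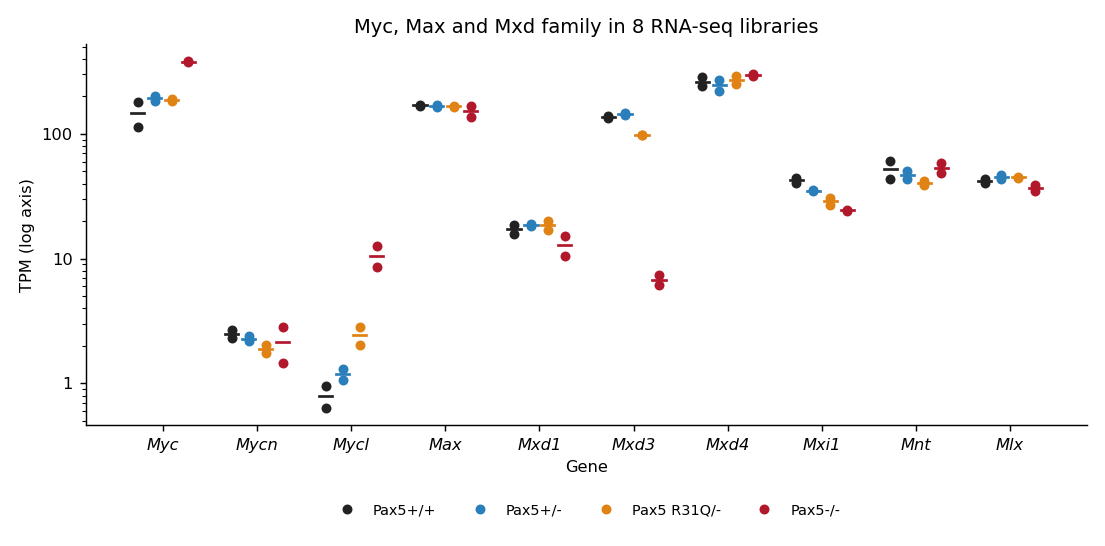
TPM of the 10 members on a log axis, with 1 point per RNA-seq library and a bar at the mean of the 2 libraries of each genotype. Mxd3 drops to between 6.14 and 7.41 TPM and Mycl climbs to between 8.54 and 12.5 TPM in Pax5-/- libraries, while Max stays between 138 and 169.9 TPM in all 8.

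Of the repressors, Mxd3, a family member known for its expression in cycling cells, showed the largest difference. It had 140 and 135 TPM in Pax5+/+, 141 and 148 TPM in Pax5+/-, 98.4 and 97.4 TPM in Pax5 R31Q/-, and 6.14 and 7.41 TPM in Pax5-/- libraries. The Pax5-/- libraries held 80 and 136 of its recovered reads, against 1723 to 2607 in the other 6. Pax5+/+ and Pax5+/- libraries lay close together, both Pax5 R31Q/- libraries lay below them, and both Pax5-/- libraries far below those. The log2 difference of Pax5-/- from Pax5+/+ was -4.16 (SE 0.12, adjusted p = 1.4e-06 from limma), and that of Pax5 R31Q/- from Pax5-/- was 3.67 (SE 0.12, adjusted p = 5.5e-06 from limma). These calls held in each alternative setting that was tried, with differences from -4.33 to -4.04 and from 3.55 to 3.84. Exons of Mxd3 overlap those of Prelid1 on the opposite strand, and whether reads were counted by strand is not given in the sources used here, so reads of the 2 genes cannot be told apart there.

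Markers of the cell cycle were lower in Pax5-/- cells, as Mxd3 was. All 20 mitosis markers, among them Ube2c, Nusap1 and Kif11, were called lower in Pax5-/- than in Pax5+/+ cells, with a median log2 difference of -2.10. Their summed level was between 785 and 797 TPM in Pax5-/- libraries, against 2671 to 4143 TPM in Pax5+/+, 3952 to 4452 TPM in Pax5+/- and 3545 to 3914 TPM in Pax5 R31Q/- libraries. Pax5 R31Q/- libraries overlapped Pax5+/+ libraries in this sum and lay below both Pax5+/- libraries. By limma 0 of the 20 markers were called between Pax5 R31Q/- and either of them. The median log2 difference was 0.17 from Pax5+/+, with 15 of the 20 above 0, where Mxd3 differed by -0.49. It was -0.14 from Pax5+/-, with 17 of the 20 below 0. Pax5+/- lay above Pax5+/+ in all 20, with a median of 0.34, where Mxd3 differed by 0.07. The summed markers of plasmacytoid and dendritic cells were between 782 and 1050 TPM in Pax5-/- libraries and between 113 and 152 TPM in the other genotypes, with 5 of 5 called higher. Those of T and NK cells were between 430 and 474 TPM against 126 to 191 TPM, with 4 of 6 tested called higher. These were led by Nkg7, from 6.45 and 6.34 to 56.2 and 24.7 TPM (2.37, adjusted p = 0.0015 from limma), Lck (2.12) and Tcf7 (1.27), while Cd3e was at 0.353 TPM or less in every library. The myeloid sum ranged from 404 to 2868 TPM between the Pax5-/- libraries and from 586 to 1968 TPM in the other genotypes, and the erythroid sum was at most 31.7 TPM, with Hbb-bs listed at 0 in all libraries. The part of these markers in the changes of the family was not tested.

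Mxi1 followed the genotypes in steps. It had 44.7 and 40.4 TPM in Pax5+/+, 35.4 and 34.7 TPM in Pax5+/-, 30.8 and 26.9 TPM in Pax5 R31Q/-, and 24.2 and 24.7 TPM in Pax5-/- libraries. No pair of genotypes overlapped. The log2 difference of Pax5-/- from Pax5+/+ was -0.77 (SE 0.13, adjusted p = 0.0027 from limma), and those of the neighbouring genotypes were within their error: -0.27 for Pax5+/- from Pax5+/+ (interval -0.56 to 0.02), -0.28 for Pax5 R31Q/- from Pax5+/- (interval -0.57 to 0.02) and 0.23 for Pax5 R31Q/- from Pax5-/- (interval -0.06 to 0.52). The RNA Gm30541 overlaps an exon of Mxi1 on the opposite strand, with the same limit on counting.

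Mxd4, often found in differentiated and resting cells, was the most abundant member in all genotypes but Pax5-/-, where Myc passed it. It had 241 and 283 TPM in Pax5+/+, 270.1 and 223 TPM in Pax5+/-, 292 and 249 TPM in Pax5 R31Q/-, and 289.8 and 300.0 TPM in Pax5-/- libraries. The difference of Pax5-/- from Pax5+/+ was 0.17 (interval -0.16 to 0.51, adjusted p = 0.37 from limma). Both Pax5-/- libraries lay above both Pax5+/+ libraries, and 1 Pax5 R31Q/- library lay between them.

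Mxd1, which is induced when blood cells differentiate, had 18.6 and 15.9 TPM in Pax5+/+, 18.4 and 19.0 TPM in Pax5+/-, 20.2 and 17.0 TPM in Pax5 R31Q/-, and 15.3 and 10.5 TPM in Pax5-/- libraries. Both Pax5-/- libraries lay below the others, with a difference from Pax5+/+ of -0.41 (interval -0.87 to 0.05, adjusted p = 0.14 from limma). It was -0.66 without Pax5-/- replicate 1 and -0.16 without Pax5-/- replicate 2.

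Mnt, the widely expressed antagonist of Myc, had 43.8 and 60.6 TPM in Pax5+/+, 50.4 and 43.8 TPM in Pax5+/-, 39.3 and 41.9 TPM in Pax5 R31Q/-, and 48.8 and 58.1 TPM in Pax5-/- libraries. The Pax5 R31Q/- libraries were the lowest of the 8. Mnt differed between Pax5 R31Q/- and Pax5-/- by -0.38 (interval -0.80 to 0.03, adjusted p = 0.13 from limma) and was called there under median-ratio scaling, quantile normalization and limma-voom, with adjusted p from 0.036 to 0.36 over all alternatives.

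Mlx had 43.3 and 40.5 TPM in Pax5+/+, 47.1 and 43.5 TPM in Pax5+/-, 45.5 and 44.4 TPM in Pax5 R31Q/-, and 34.9 and 39.2 TPM in Pax5-/- libraries. Its difference of Pax5-/- from Pax5+/+ was -0.18 (interval -0.45 to 0.10, adjusted p = 0.28 from limma). Exons of Mlx overlap those of Psmc3ip on the opposite strand.

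The R31Q allele was compared with Pax5+/+ and, for allele number, with Pax5+/-. Against Pax5+/+, 0 of the 10 members were called, where 4.17% of all genes were. At an unadjusted p-value under 0.05 there were 3, Mxi1, Mxd3 and Mycl, beside 18.8% of all genes. Mxi1 differed by -0.55 (interval -0.84 to -0.25, adjusted p = 0.058 from limma), and Mxd3 by -0.49 (interval -0.76 to -0.21, adjusted p = 0.068 from limma), which is 98.4 and 97.4 TPM against 140 and 135 TPM. With Mycl they lay just outside the threshold, and these 3 genes were called under median-ratio scaling, quantile normalization and limma-voom on recovered reads. Of all genes, these settings called 405 lower and 241 higher, 393 and 258, and 504 and 323. The main fit called 342 lower and 218 higher. The libraries did not overlap for 8 of the 10 members, beside 59.6% of all genes tested. Against Pax5+/-, 0 members were called, where 0.618% of all genes were, and 2, Mxd3 and Mycl, were below 0.05 unadjusted, beside 8.79% of all genes. Mxd3 differed by -0.56 (interval -0.83 to -0.29, adjusted p = 0.11 from limma) and was called when only these genotypes entered the fit (adjusted p = 0.019 from limma), with adjusted p from 0.019 to 0.65 over all alternatives. Pax5+/- and Pax5+/+ differed in 0 members, where 0.0223% of all genes were called, and 0 were below 0.05 unadjusted, beside 6.06% of all genes. The difference of Mxd3 there was 0.07 (interval -0.20 to 0.34).

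Against Pax5-/-, the test called 3 members, 2 lower and 1 higher, where 34.6% of all genes were called, 14.7% lower and 19.9% higher. These were Myc and Mycl, which were lower with the mutant allele, and Mxd3, which was higher. Under the study's stricter rule Mxd3 and Mycl remained, against 5.51% of all genes. The median difference was 0.02 over the members and 0.13 over all genes. Mxd1 was at an unadjusted p-value under 0.05, as 47.5% of all genes were, and was not called, with a difference of 0.51 (interval 0.05 to 0.97, adjusted p = 0.078 from limma). It was 0.77 and called without Pax5-/- replicate 1 (adjusted p = 0.021 from limma) and 0.26 without Pax5-/- replicate 2. The comparisons share libraries, so their values stand side by side and are not counted against each other.

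**Figure D2:**
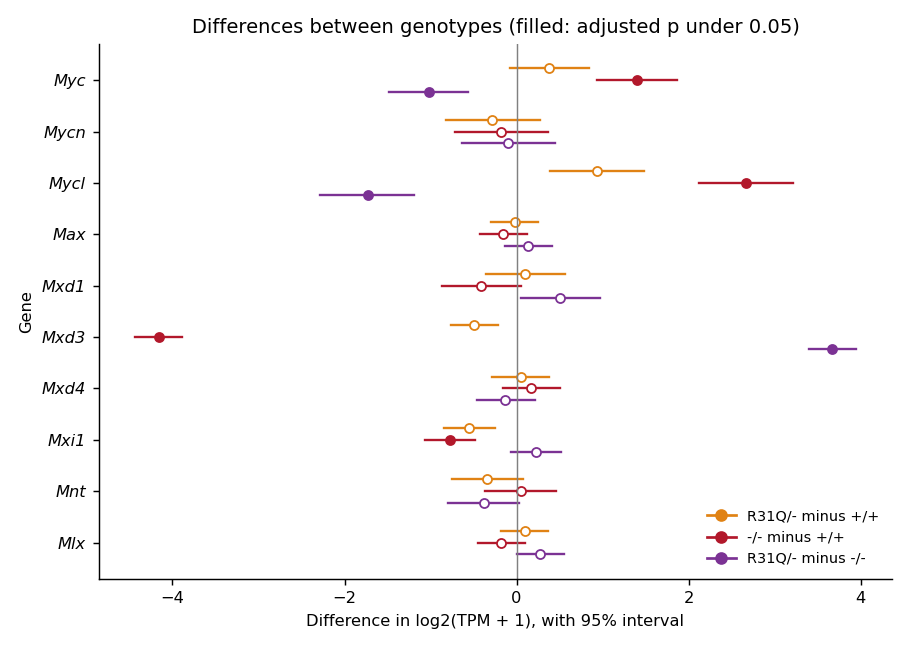
Difference in log2(TPM + 1) of each member with its 95% interval from limma in 3 comparisons; filled points had an adjusted p-value under 0.05. Mxd3 lies at -4.16 and Mycl at 2.67 for Pax5-/- minus Pax5+/+, and no point of Pax5 R31Q/- minus Pax5+/+ is filled.

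Summed by role, the balance between activators and repressors differed in Pax5-/- cells, as a description without a test. Myc, Mycn and Mycl together reached 117 and 185 TPM in Pax5+/+, 204 and 189 TPM in Pax5+/-, 195 and 189 TPM in Pax5 R31Q/-, and 390.3 and 396 TPM in Pax5-/- libraries. Mxd1, Mxd3, Mxd4, Mxi1 and Mnt together reached 488 and 535 TPM, 516 and 468 TPM, 481 and 433 TPM, and 384 and 401 TPM in the same order. The ratio of the sums was between 0.239 and 0.436 in the first 6 libraries and 1.02 and 0.988 in the Pax5-/- libraries. Mxd3 made up between 20.5% and 31.6% of the repressor sum outside Pax5-/- and 1.60% and 1.85% of it there, where Mxd4 alone took 75.4% and 74.9%. The activator sum exceeded Max in 7 of the 8 libraries. These are transcript levels and give no measure of the proteins or of the dimers they form.

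**Figure D3:**
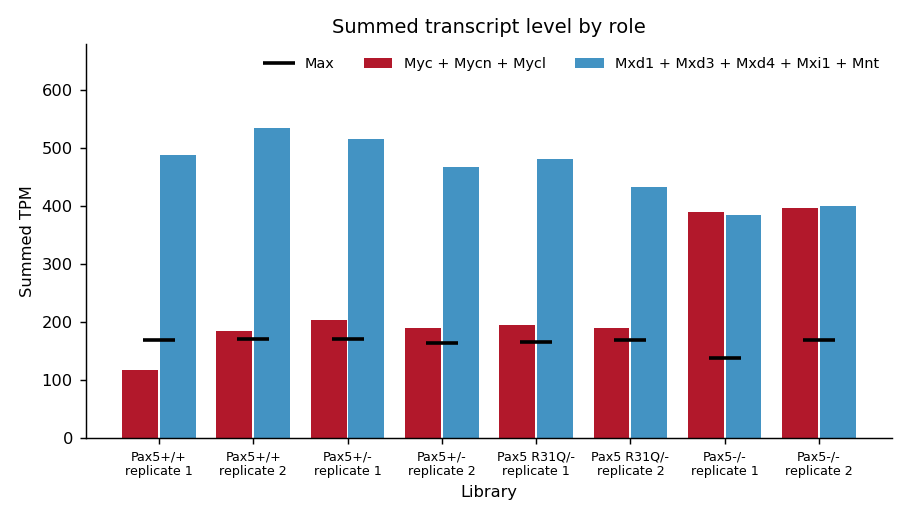
Summed TPM in each of the 8 libraries of the activators Myc, Mycn and Mycl (red bars), the repressors Mxd1, Mxd3, Mxd4, Mxi1 and Mnt (blue bars) and the level of Max (black lines). The bars stand 390.3 to 384 and 396 to 401 in the Pax5-/- libraries, and the blue bar is the higher in all 6 other libraries.

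In Pax5+/+ cells the order of the members by mean TPM was Mxd4, Max, Myc, Mxd3, Mnt, Mxi1, Mlx, Mxd1, Mycn and Mycl. Max and Myc, Myc and Mxd3, Mnt and Mxi1, and Mxi1 and Mlx overlapped as neighbours in this order. In Pax5-/- cells the order was Myc, Mxd4, Max, Mnt, Mlx, Mxi1, Mxd1, Mycl, Mxd3 and Mycn, and only Mxd1 and Mycl overlapped as neighbours. Mxd3 thus moved from the rank 4 to the rank 9.

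Peaks of both lists lay at the starts of all members. A peak was assigned to a member when it overlapped the gene or lay within 10 kb of it, which gave 28 peaks of the Rag2-/- list and 22 of the Pax5 R31Q/- list. In both lists, 10 of 10 members had a peak within 1 kb of an annotated start, against 66.8% of the 12893 annotated genes tested for the Rag2-/- list and 71.9% for the Pax5 R31Q/- list. A peak within 10 kb of the gene was found for 86.4% and 85.6% of all these genes. Of the 28 Rag2-/- peaks, 25 overlapped a Pax5 R31Q/- peak, beside 68.8% of the 17757 peaks in or within 10 kb of any gene tested, which were taken by the same rule. The share was 93.8% of the 8486 peaks within 1 kb of a start of a gene tested and 37.5% of all 41983 peaks in the list. The lists come from 1 library per genotype and hold positions only, with no height, so binding strength and its error were not compared.

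The members that differed most between genotypes had peaks common to both lists at their starts. At Mxd3 the Rag2-/- peak chr13:55329726-55330454 (729 bp) was covered by the Pax5 R31Q/- peak chr13:55329328-55330716 (1389 bp), which reached into the coding exon. The other pair of peaks assigned to Mxd3 lay at the start of Rab24, 7823 and 7836 bp past the start of Mxd3 by their middles. At Mycl the Rag2-/- peak chr4:122995346-122995671 (326 bp) had its middle at -423 bp from the start of the curated RefSeq transcripts, and the Pax5 R31Q/- peak chr4:122995370-122996298 (929 bp) spanned that start. A predicted transcript that begins at 122995588, where the span of the gene begins, starts inside both peaks. Myc had 3 peaks in each list, all common: 1 upstream, with its middle at -1835 bp from the start, 1 over the start (chr15:61984809-61985758, 950 bp) and 1 in an intron (chr15:61986765-61987273, 509 bp). The last was 1542 bp wide in the Pax5 R31Q/- list, where it ran into the coding exon. Promoter peaks of the members were 286 to 1527 bp wide in the Rag2-/- list and 866 to 2721 bp in the Pax5 R31Q/- list. Over all peaks the median width was 332 and 559 bp, so wider peaks were a trait of the latter list as a whole.

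By an overlap of at least 1 bp, 4 member peaks lacked a partner in the other list. When the overlap had to cover 50% of both peaks, 18 of the 28 Rag2-/- peaks and 18 of the 22 Pax5 R31Q/- peaks were common, and the peak at Mycl was not. Mnt had 2 peaks of the Rag2-/- list alone, chr11:74829041-74829387 at -1710 bp and chr11:74821663-74822127 at -9029 bp from its start, the latter in an exon of Mettl16. Mxi1 had 1, chr19:53328140-53328425, which lay in an intron at -1131 bp from an internal start. Mycn had the single peak of the Pax5 R31Q/- list alone, chr12:12936994-12937452 in its coding exon at the 3′ side. Mnt, Mxi1 and Mycn each had a common promoter peak as well, and no member lost all its promoter peaks, as 3.93% of the 8616 genes with a Rag2-/- promoter peak did. Max had a common peak in its intron, 4398 bp past the start, beside that over the start, and Mxd1 had only its promoter peak. Mnt had 7 peaks in the Rag2-/- list and 3 in the Pax5 R31Q/- list, of which that over the start was 2721 bp wide and spanned 2 of the former.

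**Figure D4:**
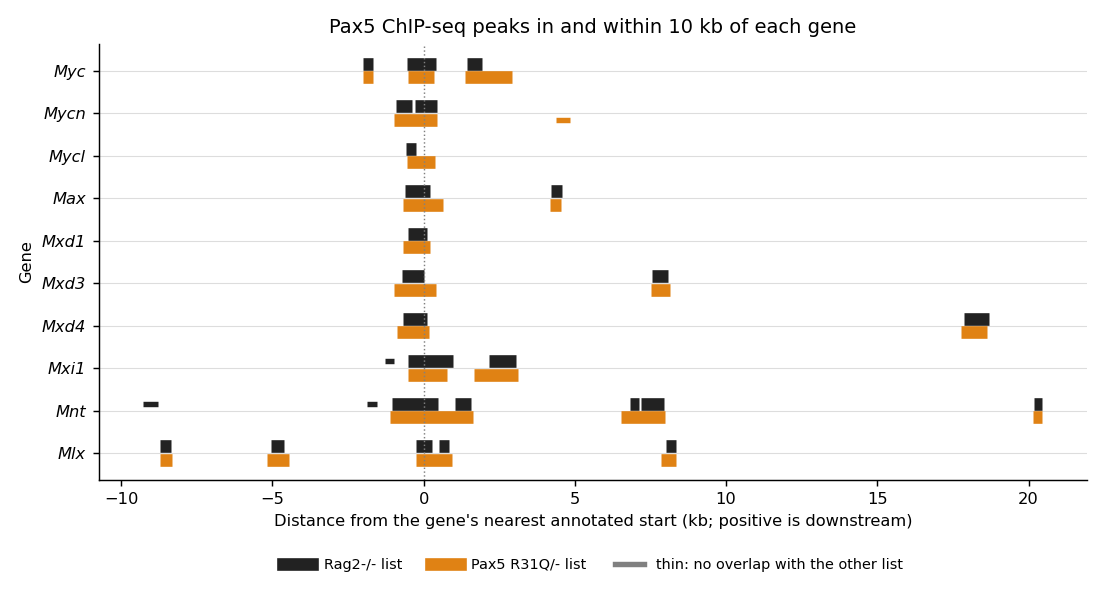
Pax5 peaks in and within 10 kb of each member by the distance in kb of their middle from the nearest annotated start of the gene, drawn to their width, with the Rag2-/- list in black above the Pax5 R31Q/- list in orange. Thick bars overlap a peak of the other list and thin bars, 2 at Mnt, 1 at Mxi1 and 1 at Mycn, do not.

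The core of the Pax5 recognition sequence, GCGTGAC, was looked for on both strands within 150 bp of the middle of each peak. It was present in 2 of the 28 Rag2-/- peaks and 3 of the 22 Pax5 R31Q/- peaks, against 3.79% and 5.98% of all peaks of these lists. The lines below show the matches at Hsd17b1 and Mycl in capitals, read along the strand of the match.
Hsd17b1 near Mlx, chr11:101078753-101078781, plus strand: tgcccaggcatGCGTGACtgagggtcgtg
Mycl, chr4:122995682-122995710, minus strand: tcctggtggagGCGTGACtgttcgagagg
The Hsd17b1 site lay in peaks of both lists, and the Mycl site in the Pax5 R31Q/- peak alone. With 1 mismatch allowed, 15 of the 28 and 15 of the 22 peaks held the core, against 69.5% and 58.8% of all peaks. The best match to the full Pax5 consensus had at least 9 of its 14 fixed positions in 26 of the 28 Rag2-/- peaks, as it did in 92.6% of all peaks, so this measure does not set the members apart. A match of at least 12 positions was found in 1 member peak of each list, that at Hsd17b1, and in 2.13% of all Rag2-/- peaks. No exact core lay in the 250 bases before the start of Mxd3, which says only that these letters are not in that window.

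Genes that Myc activates were higher on balance in Pax5-/- cells. Of 56 genes for growth and ribosome production, 23 were called higher and 1 lower than in Pax5+/+, where 16.2% and 19.7% of all genes were, with a median log2 difference of 0.36 beside -0.11 over all genes. The largest were Ccnd2, which encodes cyclin D2, from 81.3 and 85.1 TPM to 357 and 360.5 TPM (2.10, adjusted p = 2.6e-05 from limma), Polr1b, a subunit of RNA polymerase I (1.08, adjusted p = 7.6e-04 from limma), and the importin Ipo4 (0.98, adjusted p = 4.3e-04 from limma). Odc1, which encodes ornithine decarboxylase and is a well-known target, had 77.5 and 68.6 TPM in Pax5+/+ and 70.7 and 75.6 TPM in Pax5-/- libraries. The number called in either direction ranged from 10 to 34 over the alternatives. Between Pax5 R31Q/- and Pax5+/+ cells 2 of the 56 were called, both higher in the former, a share near the 4.17% of all genes, with a median of 0.25 beside 0.04 over all genes. These were Ccnd2 at 168 and 148 TPM (0.92, adjusted p = 0.0078 from limma) and the methyltransferase Prmt3 (0.59, adjusted p = 0.039 from limma). In Pax5+/- libraries Ccnd2 was at 134 and 159 TPM, which overlaps Pax5 R31Q/-, and Prmt3 was at 48.2 and 50.2 TPM, against 67.0 and 60.4 TPM in Pax5 R31Q/-. Between Pax5 R31Q/- and Pax5+/- limma called 0 of the 56, with a median of 0.10 beside 0.01 over all genes, and between Pax5+/- and Pax5+/+ it called 0, with a median of 0.15 beside 0.02 and 53 of the 56 above 0. Prmt3 lost its call against Pax5+/+ without any 1 of the 4 libraries and Ccnd2 without 3 of them, with adjusted p from 0.069 to 0.28 for Prmt3, and for Ccnd2 0.051 without Pax5+/+ replicate 2, 0.092 without Pax5 R31Q/- replicate 1 and 0.061 without Pax5 R31Q/- replicate 2.

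Genes known to be repressed by Myc through Zbtb17 (Miz-1) were compared in the same way. In Pax5-/- cells 3 of 5 tested were called lower and 1 higher, where 19.7% and 16.2% of all genes were. Cdkn2c, the inhibitor p18, had 118 and 81.8 TPM in Pax5+/+ and 9.56 and 12.3 TPM in Pax5-/- libraries (-3.07, adjusted p = 3.8e-05 from limma). Cdkn1b, the inhibitor p27, differed by -1.73 (adjusted p = 3.3e-04 from limma) and the stress gene Gadd45a by -1.35 (adjusted p = 0.0012 from limma). Ndrg1, the gene called higher, had 26.4 and 36.3 TPM in Pax5+/+ and 70.5 and 54.2 TPM in Pax5-/- libraries. Cdkn1a was not called and had 109 and 102 TPM against 87.0 and 103 TPM. Cdkn2b was below the filter, at most 0.155 TPM. Between Pax5 R31Q/- and Pax5+/+ cells 0 of the 5 tested were called, where 4.17% of all genes were.

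Of the 7 tested genes of the extended network, the factors related to the members, Bmyc, a short relative of Myc that lacks the DNA-binding part, rose most in Pax5-/- cells. It had 46.5 and 82.7 TPM in Pax5+/+, 70.1 and 57.5 TPM in Pax5+/-, 59.9 and 64.4 TPM in Pax5 R31Q/-, and 289 and 341 TPM in Pax5-/- libraries, a log2 difference of 2.32 (SE 0.25, adjusted p = 4.0e-04 from limma). Among these 7 genes, 2 were called higher, Bmyc and the E-box factor Tfap4 (0.47, adjusted p = 0.049 from limma), and 1 lower, Mlxip, the partner of Mlx (-0.85, adjusted p = 0.0093 from limma). These 3 of 7 are near the 35.9% of all genes called. The call of Tfap4 was lost without Pax5+/+ replicate 1 (adjusted p = 0.19), Pax5-/- replicate 1 (0.096) or Pax5-/- replicate 2 (0.12), and that of Mlxip without Pax5+/+ replicate 2 (0.054) or Pax5-/- replicate 1 (0.051), all from limma. Mlxipl was below the filter, at most 0.217 TPM. Of 3 glucose-responsive Mlx targets, Txnip alone was called, from 240.4 and 219.7 TPM to 135 and 122 TPM (-0.84, adjusted p = 0.0063 from limma). This 1 of 3 is near the 35.9% of all genes called.

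Of 17 cofactors of Myc and Mxd proteins, 3 were called lower, among them Sap30 of the Sin3 complex (-0.65, adjusted p = 0.020 from limma) and Actl6a (-0.54, adjusted p = 0.034 from limma), and 1 higher, the acetyltransferase Kat2a (0.53, adjusted p = 0.017 from limma). These 4 of 17 are below the share of 35.9% of all genes. Leaving out 1 library lost the calls of Actl6a (Pax5+/+ replicate 1, 0.13, Pax5+/+ replicate 2, 0.089, Pax5-/- replicate 1, 0.070), Sap30 (Pax5+/+ replicate 1, 0.094, Pax5-/- replicate 1, 0.089) and Kat2a (Pax5+/+ replicate 1, 0.075), each with the adjusted p from limma. Of 12 genes for the stability of the Myc protein, 4 were called lower and 1 higher, which is near the 35.9% of all genes. The largest were Aurka (-2.23, adjusted p = 2.4e-04 from limma), which is also one of the mitosis markers, and the ubiquitin ligase parts Skp2 (-1.11, adjusted p = 0.0043 from limma) and Fbxl14 (-0.85, adjusted p = 0.0014 from limma). In Pax5 R31Q/- against Pax5+/+ cells, 0 genes of the extended network, the cofactors and the stability list were called, where 4.17% of all genes were. Of 6 housekeeping genes, Tbp was called lower in Pax5-/- cells (-0.55, adjusted p = 0.044 from limma), a call lost without Pax5+/+ replicate 1 (0.10), Pax5+/+ replicate 2 (0.16) or Pax5-/- replicate 1 (0.083).

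The genes whose profile over the 8 libraries was nearest to those of the 3 members with the largest range were found by the root mean square difference of centred log2(TPM + 1), among genes with a mean of at least 5 TPM. For Mxd3 these were Ttll11 (0.18), Ikzf3 (0.23), which encodes the transcription factor Aiolos, and Cnn1 (0.24). Ttll11 had 26.4 and 30.4 TPM in Pax5+/+, 30.6 and 32.2 TPM in Pax5+/-, 20.8 and 23.5 TPM in Pax5 R31Q/-, and 0.344 and 0.377 TPM in Pax5-/- libraries. For Mycl they were Saraf (0.20), 5830418P13Rik (0.21) and Ly86 (0.23), and for Myc they were Phlda3 (0.11), Nbeal2 (0.11) and B3gnt7 (0.12). The likeness is a description over libraries that share their genotypes.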

How the data were processed

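The authors removed ribosomal reads with Bowtie2, aligned the rest with STAR 2.4.2 to GRCm38/mm10, counted uniquely mapping reads per RefSeq gene with featureCounts and deposited TPM. For ChIP-seq they aligned reads with Bowtie2 2.3.5.1 and called peaks with MACS against an input, after reducing libraries to equal read numbers with Picard 2.18.27 where a comparison of peaks needed it, and the deposited lists hold start, end and a score of 0. DESeq2, which the authors used on counts, was not used here. Multiples of 1 read gave whole numbers for all 18206 genes above 0 in at least 2 libraries (100.0% within a tolerance of 0.0001).

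Groups were taken from the labels, with replicate numbers in accession order, which pair no samples. For 1 ChIP-seq library the description writes R31Q beside Rag2, while its characteristics give Pax5, which were followed. Differences were tested on log2(TPM + 1) with limma 3.58.1 (R 4.3.3), with eBayes and a trend, over all 8 libraries and the 13436 genes with at least 1 TPM in at least 1 library. P-values are two-sided and adjusted by Benjamini-Hochberg over all of them. An exact test of 2 libraries against 2 cannot go below 0.333. The script was tested on simulated data. Peaks and sequences were handled in Python 3.11.15 with pysam 0.24.0 on RefSeq GRCm38.p6, in which 12893 of the tested genes were found. Distances are from the starts of curated RefSeq transcripts (NM and NR), or of predicted ones for genes without any, whereas gene spans take in predicted transcripts. Common peaks overlap by at least 1 bp.

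The members and lists were chosen with earlier results of these data known. Named genes are the members, at most 3 called genes of largest difference per list, 3 nearest profiles for each of 3 members, Pax5 and genes at described peaks. Odc1, Dntt, Cd3e, Hbb-bs, Mlxipl, Ndrg1, Cdkn1a and Cdkn2b are named beside them as examples chosen after their values were seen. Some genes and sites are not reported here.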

Additional observations from a re-analysis of the deposited data

How the results depend on the processing

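The calls in Pax5-/- against Pax5+/+ were made by each alternative of pseudocount, filter, scaling, trend and fit: 4 members, and 2 under the study's rule of fold and mean TPM. The 4 members stayed called when any 1 library was left out. Mxd1 was added without Pax5-/- replicate 1. Max was added without Pax5-/- replicate 2, where the median over all genes was -0.22. Against Pax5+/+, Pax5 R31Q/- gave 0 members and became 3 with median-ratio scaling, 3 with quantile normalization and 3 with limma-voom on recovered reads, and from 0 to 1 when 1 library was left out, with Myc called without Pax5+/+ replicate 2. Against Pax5-/- the number was 3, from 2 to 5 when 1 library was left out, with Max and Mlx added without Pax5-/- replicate 2 and Mxd1 without Pax5-/- replicate 1. Against Pax5+/- the number of members called was 0 and became 1 (Mxd3) with only the libraries of the 2 genotypes, 1 with median-ratio scaling and 1 with limma-voom. The cause of these changes was not tested. With 1 library left out, the lone library of its genotype is assumed to vary like the other groups. Over all genes, limma-voom called 504 lower and 323 higher in Pax5 R31Q/- against Pax5+/+, where 342 and 218 were called by the TPM fit, and leaving out Pax5 R31Q/- replicate 2 gave 60 and 34. Median-ratio scaling moved the median of all genes in Pax5-/- against Pax5+/+ from -0.11 to -0.02. In Pax5 R31Q/- against Pax5-/- it called 2619 genes lower and 2482 higher, where the TPM fit called 1978 and 2677. The balance of directions over all genes thus depends on the scaling.

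Beyond the libraries left out, some calls of single genes in Pax5-/- against Pax5+/+ were lost with only the libraries of the 2 genotypes (Actl6a 0.11, Kat2a 0.076, Sap30 0.088, Tbp 0.14 and Tfap4 0.14, as adjusted p), without a filter (Actl6a 0.057, Tbp 0.072, Tfap4 0.072), without a trend (Actl6a 0.051, Tbp 0.060, Tfap4 0.070) or with a pseudocount of 0.1 (Tfap4 0.051). The call of Prmt3 in Pax5 R31Q/- against Pax5+/+ was lost with only the 2 genotypes (0.052) and without a trend (0.058).

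Differences near 0 changed sign when 1 library was left out. Between Pax5-/- and Pax5+/+, Mnt ranged from -0.18 to 0.28 (-0.08 without Pax5-/- replicate 2) and Mycn from -0.50 to 0.14. Between Pax5 R31Q/- and Pax5+/+, Mxd1 ranged from -0.01 to 0.22 and Mxd4 from -0.07 to 0.16. Between Pax5 R31Q/- and Pax5-/-, Max ranged from -0.01 to 0.28 and Mycn from -0.41 to 0.22. The number of Rag2-/- peaks was 28 with a window of 10 kb and 44 with 50 kb, which takes in more of the neighbouring genes, 25 of the 28 were common by 1 bp and 18 by 50% of both peaks, and 10 members with a promoter peak became 9 with a window of 0.2 kb. No paired analysis was possible because the labels give the samples of a genotype no shared replicate numbers.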

Other observations

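Mlx lies among closely spaced genes, and 3 of its 5 Rag2-/- peaks were nearest to other starts: Hsd17b1 at 348 bp, Coasy at -93 bp and Psmc3ip at -25 bp from the start, all common to both lists. In the same way the second peak of Mxd3 belonged to Rab24 and that of Mxd4 to Haus3 and Poln. In all, 6 of the 28 member peaks of the Rag2-/- list and 6 of the 22 of the Pax5 R31Q/- list were nearer to the start of another gene.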
